A study of Drosophila melanogaster with 2 samples.

Results

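The subject is the distal intergenic binding of Hr51: peak summits in the embryo that lay more than 5000 bp from the transcription start site (TSS) of every annotated gene and inside no gene body. The rule used position alone, with transposable elements left out of the gene models, and it took 393 of the 7229 reproducible summits (5.44%, Wilson 95% interval 4.94 to 5.98%). Binding was measured by chromatin immunoprecipitation and sequencing (ChIP-seq) in whole Drosophila melanogaster embryos of pooled sexes, 14 to 16 h old, of the strain Dhr51-GFP. These flies stably carry a transgene for Hr51 with GFP at its C-terminus, the precipitation was against GFP, and chromatin was sonicated to 200 to 800 bp. The 2 libraries, biological replicates 1 and 3, formed 1 group, so no conditions could be compared and no test was run; every comparison is a description. The values of each replicate alone show the replicate spread, and Wilson intervals cover counting error over summits only. Whole embryos were used, so the cells that hold a binding site cannot be told from these data, and ChIP gives no RNA levels against which tissue markers could be checked.

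The gene for Hr51 is also known as unfulfilled. Its product belongs to the NR2E nuclear receptors, orphan receptors that act mostly in the nervous system. It is known for its part in the pruning and regrowth of mushroom body neurons and in clock neurons. Distal intergenic DNA in Drosophila holds enhancers, which raise transcription of genes at a distance, along with Polycomb response elements, which keep developmental genes silent, and insulators, which limit contacts between neighbouring regions. Which gene a distal site acts on cannot be read from its position, so genes are named here only as neighbours.

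The signal of a peak was the score deposited by the authors for it, on a scale that was not given. Depth is unknown, so no error could be attached to the signal of 1 peak. Of the 10 strongest distal summits, 8 are shown first, so that the base composition described next can be read in strong sites. Each sequence is the summit base with 50 bp on each side on the plus strand (dm6), named by the protein-coding genes on both sides. Capitals mark AGGTCA, the hexamer that many nuclear receptors bind, and would also mark the GAGA element GAGAG or the repeat CACACACA on either strand.
RFeSP to chinmo, signal 3968, chr2L:1638732-1638832: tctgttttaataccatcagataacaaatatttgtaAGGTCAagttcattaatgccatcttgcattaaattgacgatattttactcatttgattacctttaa
NijA to CG43245, signal 2818, chr3L:10752698-10752798: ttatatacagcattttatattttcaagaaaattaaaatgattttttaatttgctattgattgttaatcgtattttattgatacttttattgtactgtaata
RFeSP to chinmo, signal 1913, chr2L:1632782-1632882: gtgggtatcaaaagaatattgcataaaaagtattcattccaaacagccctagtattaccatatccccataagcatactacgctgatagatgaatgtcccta
scyl to Dyro, signal 1747, chr3L:11261591-11261691: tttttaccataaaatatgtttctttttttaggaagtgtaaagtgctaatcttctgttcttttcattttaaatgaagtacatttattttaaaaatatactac
hng3 to CG13898, signal 1252, chr3L:781292-781392: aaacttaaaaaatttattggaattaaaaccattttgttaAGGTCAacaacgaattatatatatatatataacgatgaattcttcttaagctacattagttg
vvl to Prat2, signal 1203, chr3L:6853586-6853686: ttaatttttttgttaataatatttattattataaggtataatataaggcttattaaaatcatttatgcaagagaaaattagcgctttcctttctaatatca
CG44362 to CG7560, signal 1164, chr3L:11418405-11418505: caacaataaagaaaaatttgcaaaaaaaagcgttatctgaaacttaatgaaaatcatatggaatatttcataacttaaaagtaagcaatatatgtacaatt
NijA to CG43245, signal 1092, chr3L:10740013-10740113: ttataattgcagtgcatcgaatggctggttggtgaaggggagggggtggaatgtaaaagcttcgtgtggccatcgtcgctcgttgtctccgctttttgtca

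Runs of A and T filled most of these windows. The window of signal 3968 was 26.7% GC, the one of signal 2818 was 16.8% GC and the one of signal 1203 was 18.8% GC. The summit of signal 1092 stood apart, with 50.5% GC. AGGTCA occurred in the windows of signal 3968 and 1252, and neither GAGAG nor CACACACA occurred in these 8.

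The next 4 distal summits by signal with AGGTCA in the window are shown because Hr51 is a nuclear receptor and many nuclear receptors bind this hexamer. Capitals mark AGGTCA or its reverse complement.
NijA to CG43245, signal 543, chr3L:10745693-10745793: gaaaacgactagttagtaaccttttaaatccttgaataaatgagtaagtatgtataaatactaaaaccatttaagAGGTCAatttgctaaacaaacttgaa
Gr93a to Gr93b, signal 365, chr3R:21838592-21838692: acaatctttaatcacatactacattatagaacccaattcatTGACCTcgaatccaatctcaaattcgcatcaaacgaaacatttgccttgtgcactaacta
NetA to CG5321, signal 224, chrX:14669396-14669496: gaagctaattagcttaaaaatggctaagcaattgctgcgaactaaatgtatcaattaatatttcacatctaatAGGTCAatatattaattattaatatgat
B-H2 to B-H1, signal 191, chrX:17334228-17334328: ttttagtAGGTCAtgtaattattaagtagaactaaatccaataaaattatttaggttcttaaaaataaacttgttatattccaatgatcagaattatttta

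Of the 393 windows, 9 (2.29%, 1.21 to 4.29%) held AGGTCA, against 2.14% of the windows at all reproducible summits. The share was 2.83% in replicate 1 alone and 1.83% in replicate 3 alone. Windows of the same length centred 500 bp to each side held it in 1.40%, and tiles of the same length over all distal intergenic DNA held it in 2.71%. With tiles weighted to the GC content of the summit windows, a choice made after the values were seen, the tile share was 2%. The share at the distal summits was thus close to that over the list, and the direction of its difference from the tiles turned with the weighting. The hexamer of the NR2E type, AAGTCA, stood in 6.36% of the windows, 6.74% of the flanks and 5.83% of the tiles. It was in 5.92% of the windows at all reproducible summits, and in 5.38% and 4.97% in replicates 1 and 3 alone. The extended element TCAAGGTCA stood in 0 of 393 windows, which allows a share of up to 0.968% by the Wilson interval. Its share over all reproducible summits was 0.0138%. A match is only a run of letters, and the absence of one says only that these letters are not in the window.

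The base composition at the distal summits was far from that of the DNA around them. Mean GC content was 29.6% ± 8.24 (SD over the 393 windows), against 43.0% ± 6.63 for the mean of the 2 windows 500 bp away. The 196298 tiles of distal intergenic DNA averaged 40.9%, and 12.3% of them lay at or below the mean of the summits. The summit window was lower in GC than the mean of its own flanks at 356 of the 393 summits (90.6%), against 84.7% of all reproducible summits. Single windows ran from 11.9% to 59.4% GC, and 31 of them (7.89%) were at or below 20%, against 1.63% of the tiles. The strongest distal summit shows the pattern over 300 bp, with its 51 bases of lowest GC in capitals; this longer stretch was chosen after its values were seen.
RFeSP to chinmo, signal 3968, chr2L:1638632-1638931: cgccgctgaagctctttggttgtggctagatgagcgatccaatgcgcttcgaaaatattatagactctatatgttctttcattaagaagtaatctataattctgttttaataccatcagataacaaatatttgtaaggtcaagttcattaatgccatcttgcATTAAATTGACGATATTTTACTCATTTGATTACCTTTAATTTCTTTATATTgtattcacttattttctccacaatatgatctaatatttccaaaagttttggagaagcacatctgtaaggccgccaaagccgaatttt

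In this stretch the 51 bases were 17.6% GC, the whole 300 bases were 32.3%, and the centre of the 51 lay 37 bp from the summit. When the window of 51 bp with the lowest GC was sought from 500 bp left to 500 bp right of each summit, in steps of 10 bp, it was centred within 50 bp of the summit at 204 of 393 distal summits (51.9%, 47.0 to 56.8%). Over all reproducible summits the share was 44.5%. In replicate 1 alone the distal share was 47.0% and the mean summit GC 31.8%, and in replicate 3 alone the values were 55.2% and 29.4%. The dip was therefore present in the peak list of each library. It was narrow, and it sat inside DNA that was richer in G and C than the surroundings. Averaged over the distal summits in steps of 20 bp, GC fell to 28.2% at 20 bp to the left of the summit, rose to 46.8% and 47.4% at 300 bp to the left and right, and returned to 39.7% and 39.9% at 1000 bp.

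**Figure D1:**
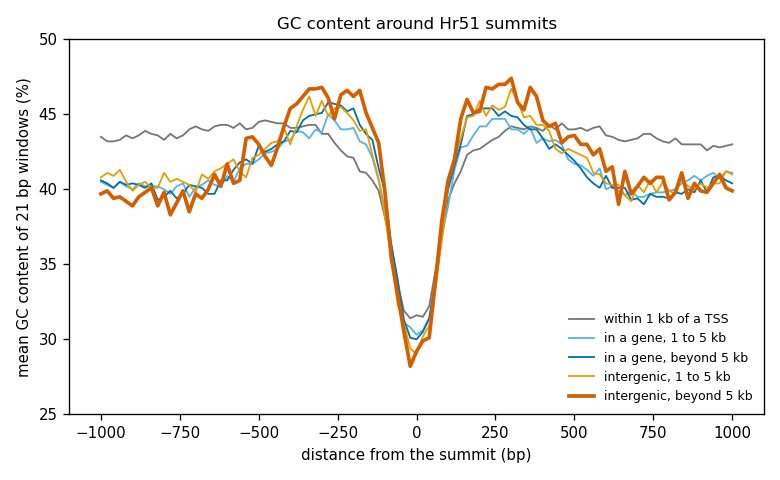
Mean GC content (%) in windows of 21 bp against distance from the summit (bp) for the 5 places in the genome that the 7229 reproducible summits were put in; lines are means over summits. The distal intergenic summits (thick line) fall to 28.2% beside the summit, stand near 47% at 300 bp and come back to about 40% at 1000 bp, while summits within 1 kb of a TSS have no raised shoulders.

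Summits elsewhere had the dip too. The mean GC of the summit window was 31.7% within 1 kb of a TSS, 30.8% and 30.7% inside genes at 1 to 5 kb and beyond 5 kb, and 30.1% in intergenic DNA 1 to 5 kb from a TSS. The distal intergenic summits had the lowest mean of the 5 places and the highest share below their own flanks, 90.6% against 82.8% within 1 kb of a TSS, but the share at distal summits was 83.6% in replicate 1 alone and 90.3% in replicate 3 alone, a spread about as wide as that difference. The raised shoulders were a feature of the places away from TSSs. At 300 bp to the right, intergenic summits at 1 to 5 kb reached 46.7% from 41.0% at 1000 bp, whereas those within 1 kb of a TSS held 44.2% and 43.0%.

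The dip was shallow below the threshold of the reproducible list. Among the distal intergenic peaks of the pooled list that fell outside the reproducible list, 2577 in all, mean GC was 39.4% at the summit and 41.6% at the flanks, and 54.4% of the summits were below their flanks. Within the 393, the strongest tertile of 131 summits averaged 29.0% GC and the weakest 30.4%, and the lowest window lay within 50 bp of the summit in 59.5% and 44.3% of them. Spearman's rho between summit GC and signal over the 393 was -0.080, so above the threshold of the list strength and GC were nearly unrelated. The summits of 94 distal peaks were the middle of a peak of the default width of 410 bp, and for these the share within 50 bp was 37.2%, against 56.5% of the other 299.

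Among all 6-mers, counted on both strands together, the ones most raised over the flanks were made of A and T alone. AAATAT stood in 43.8% of the distal summit windows and 15.4% of the flank windows, AATATA in 34.9% and 8.91%, and TTAAAA in 39.7% and 14.4%. These words were also common at all reproducible summits, with 38.6% for AAATAT, 29.5% for AATATA and 36.5% for TTAAAA. The most lowered were GCCAAA, in 4.07% and 13.2%, and CACACA, in 3.82% and 12.8%, with 6.06% and 5.56% at all reproducible summits. Much of this follows from composition by construction, so tiles of distal intergenic DNA were also weighted to the GC content of the 393 windows. AATATA was then in 27.5% of the weighted tiles against 34.9% at the summits, and ATACAT in 12.3% against 19.1%. ATACAT stood in 15.3% of the windows at all reproducible summits. Other words of A and T were then less frequent at the summits than in the tiles. AAAATT stood in 29.3% of the summit windows and 37.6% of the weighted tiles, and AAATTA in 26.5% and 33.6%. Their shares at all reproducible summits were 29.8% and 29.3%. AAAAAT, which was 15.6 percentage points above the flanks, stood in 38.7% of the summit windows and 46.2% of the weighted tiles, so its direction turned. It was in 39.1% of the windows at all reproducible summits. This weighting was chosen after the values were seen.

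GAGAG, the core of the element bound by GAGA factor (Trl), stood in 37 of the 393 windows (9.41%, 6.91 to 12.7%), against 8.30% at all reproducible summits. It was in 9.07% in replicate 1 alone and 8.38% in replicate 3 alone, in 11.6% of the flanks and in 11.5% of the tiles. With tiles weighted to the same GC the background was 6.63%, so the direction of the difference from the tiles turned with the weighting. CACACACA stood in 2 windows (0.509%, 0.140 to 1.84%), those near Zasp52 (signal 320) and in the gap from NijA to CG43245 (signal 277), against 1.07% at all reproducible summits. Its share was 4.07% in the flanks, 1.79% in the tiles and 0.731% in the tiles weighted to the same GC. CACACACA was thus more frequent in the windows 500 bp away than at the summits, where its share was near that of the weighted tiles. In windows of 501 bp it stood in 13.2% of the distal regions (10.2 to 16.9%), 14.7% and 12.8% in replicates 1 and 3 alone, against 8.10% of distal intergenic tiles of that length. The share in 501 bp over all reproducible summits was 13.4%, close to that of the distal ones. These wider windows were added after the values at the summits were seen.

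Short cores of the elements of the insulator proteins Su(Hw) and CTCF were rare at these summits and above their tile shares. Their shares over all reproducible summits were inside or near the intervals of the distal ones. TGCATACTT, a core of the element of Su(Hw), stood in 4 windows (1.02%, 0.396 to 2.59%) against 0.205% of tiles and 0.415% of all reproducible summits. It stood in 11 windows of 501 bp (2.80%, 1.57 to 4.94%), against 1.09% of the tiles of that length and 1.34% of all reproducible summits. The 4 lay near Chsy (signal 446), Zasp52 (320), CG15282 (251) and CG33669 (163). AGGNGGCGC, a core of the CTCF element, stood in 3 windows (0.763%, 0.260 to 2.22%) against 0.134% of tiles and 0.443% of all reproducible summits, near Jhbp1 (190), tal-1A (182) and CadN (138). In 501 bp it was in 10 regions (2.54%, 1.39 to 4.62%), in 2.27% and 2.09% in replicates 1 and 3 alone, against 0.682% of tiles and 1.62% of all reproducible summits. These counts are small, the summits were named after their values were seen, and 31 motifs were searched on both strands. Among common elements, CGATA, a core of the element of the insulator protein BEAF-32, was below its tile share. It stood in 9.16% of the summit windows, 10.9% of the tiles and 10.9% of all reproducible summits. In 501 bp the shares were 37.7%, 43.0% and 45.8%. The E-box CATATG stood in 17.3% of the wide windows, 12.9% of the tiles and 16.3% of all reproducible summits, and CAGGTG in 8.65%, 14.5% and 12.1%. AGGTCA stood in 9.92% of the wide windows, 9.07% and 8.38% in replicates 1 and 3 alone, in 13.1% of the tiles and in 10.1% of all reproducible summits.

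Distal intergenic summits were weaker than the rest of the list. Their signal ran from 135 to 3968 with a median of 220 (quartiles 165 and 308), and the median of all 7229 was 270. The ratio of the medians was 0.813. With the signals of the matched replicate peaks, the medians of distal and of all summits were 105 and 129 in replicate 1. In replicate 3 they were 120 and 149. Summits within 1 kb of a TSS had a median of 318, those inside genes 260 and 235, and intergenic ones at 1 to 5 kb 240. Only 18 of the 393 (4.58%) were among the 1000 strongest of the list, against 13.8% of all summits.

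The distal intergenic share rose as peaks became weaker. It was 1.80% of pooled ranks 1 to 1000, 3.65% of ranks 1001 to 3000, 7.14% of ranks 3001 to 7229, 9.83% of ranks 7230 to 15000 and 12.1% of ranks 15001 to 30000. Replicate 1 gave 2%, 3.10%, 6.41%, 8.76% and 10.6%, and replicate 3 gave 1.90%, 3.55%, 6.90%, 9.55% and 11.7%. The order of the 5 steps was the same in both libraries, and the steps were wider than the distance between them. Distal intergenic DNA makes up 15% of the sequence of the chromosomes used, so the share stayed below that level even in the weakest step.

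**Figure D2:**
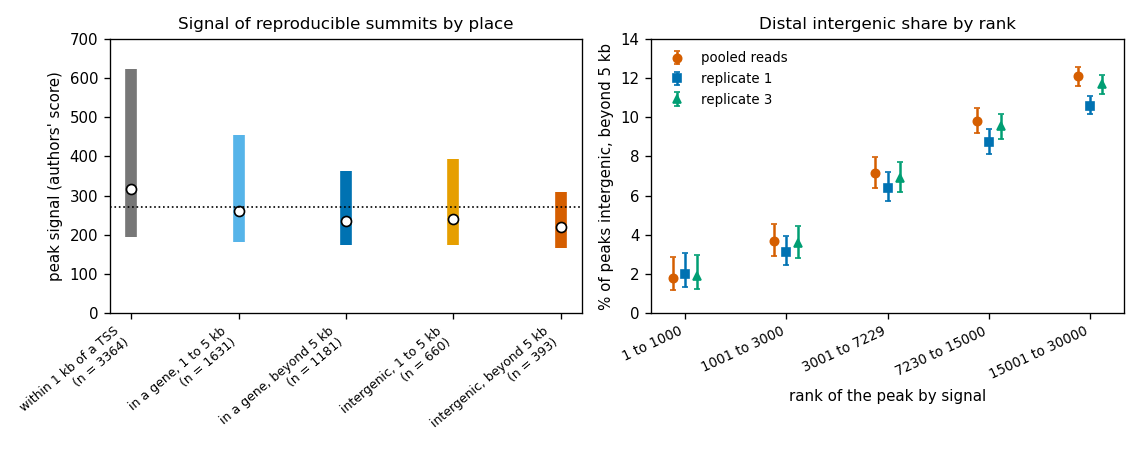
Left, peak signal (the authors' score) of the reproducible summits by place, with bars from the lower to the upper quartile, circles at the median and a dotted line at the median of all 7229, 270; the median of the distal intergenic summits, 220, is the lowest. Right, percent of peaks that are distal intergenic by rank of signal in the pooled list and in each replicate, with Wilson 95% intervals; it climbs from about 2% to between 10.6 and 12.1%.

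Replicate support was high and slightly below that of the list. All 393 distal summits overlapped a peak of replicate 3 and 372 overlapped one of replicate 1, so 372 (94.7%, 92.0 to 96.5%) had a peak in both, against 97.3% of all reproducible summits. The reproducible list was made from these libraries, so a high share is in part built in. Replicate summits within 100 bp in both libraries were found for 359 (91.3%), with median shifts of 21.0 bp in replicate 1 and 16.0 bp in replicate 3. That share was 93.6% over all reproducible summits, where both median shifts were shorter. Over the 372, Spearman's rho of the replicate signals was 0.710, and it was 0.818 over all reproducible summits with both peaks. These points are peaks picked on pooled reads of the same 2 libraries, and the distal ones span a narrower range of signal.

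The 21 distal summits without a replicate 1 peak had signals of 136 to 409. The strongest was 10390 bp from wb, a laminin gene, with signal 409 and 279 in replicate 3. Next came a summit near Dr (282, with 172 in replicate 3), one in the intergenic DNA beside dpp (264, with 138), one near hry (248, with 137) and one near unc-4 (231, with 137). Dr and unc-4 encode homeodomain factors, dpp a BMP ligand and hry a pair-rule repressor. The widest gap between libraries among summits found in both was beside scyl, where the middle of 3 neighbouring summits, 611 bp from the next, had a signal of 39.6 in replicate 1 (rank 13845) and 443 in replicate 3 (rank 920).

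**Figure D3:**
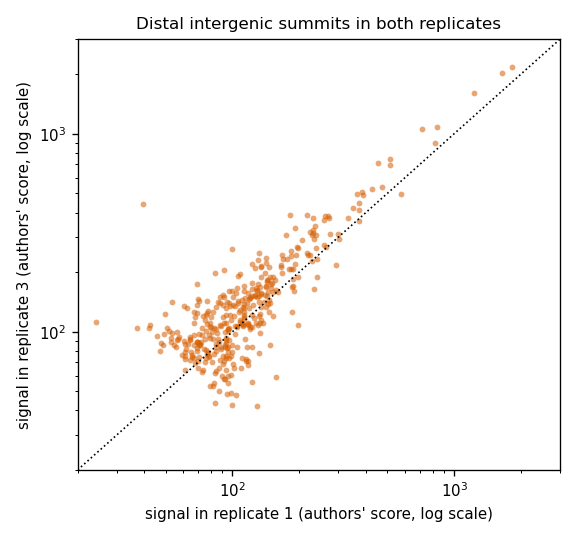
Signal in replicate 1 against signal in replicate 3 (authors' score, both axes logarithmic) for the 372 distal intergenic summits with a peak in both; each point is a summit and the dotted line marks equal values. The points follow the line with more scatter below a signal of about 200, and 1 point, the middle summit beside scyl, stands far above it at 39.6 and 443.

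Measured against the DNA open to it, distal intergenic binding was sparse. Of 134 Mb, 20.1 Mb met the rule, and it held 19.6 summits per Mb, against 54.0 per Mb for all reproducible summits over all sequence. The ratio was 0.362, and it was 0.325 in replicate 1 alone and 0.352 in replicate 3 alone. Counting only bases not masked as repeats, in both densities, raised it to 0.427. Leaving out gaps between genes of more than 100 kb, from the distal density alone, raised it to 0.505. Both of these were added after the values were seen. The density stayed below that of the whole sequence in each case.

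Long gaps between genes were nearly empty. Distal summits numbered 34.4 per Mb of eligible DNA in gaps of up to 10 kb, 36.5 in gaps of 10 to 20 kb, 31.6 at 20 to 30 kb, 24.4 at 30 to 50 kb and 14.1 at 50 to 100 kb. The 27 gaps beyond 100 kb held 2 summits in 5.76 Mb, or 0.347 per Mb, and 52.1% of that DNA was unmasked, against 78.7% in gaps of 10 to 20 kb. Per unmasked Mb the values were 46.4 at 10 to 20 kb and 0.666 beyond 100 kb. The part of repeats in this was not tested.

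The chromosome arms differed. Per Mb of eligible DNA there were 27.0 distal summits on 2L, 22.4 on 3L, 22.5 on 3R, 18.1 on X and 10 on 2R, with 0 in the 0.126 Mb of chromosome 4. Replicate 1 alone gave 24.7, 20.1, 19.1, 15.7 and 10 in the same order, and replicate 3 alone 28.2, 21.5, 22.2, 16.1 and 9.39. The highest arm, 2L, and the lowest, 2R, were the same in both libraries, whereas 3L and 3R exchanged places. The density of all reproducible summits was 47.7 per Mb on 2R and 61.4 on X, the lowest and highest of these 5, and 5.93 on chromosome 4.

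Distal summits were spread over 233 of the 1422 gaps between genes that hold eligible DNA (16.4%), and 83 gaps had 2 or more of them. Another reproducible summit of any kind lay within 10 kb of 288 of the 393 (73.3%, 68.7 to 77.4%), against 82.9% of all reproducible summits, and the median distance to it was 4.78 kb against 2.62 kb. In replicates 1 and 3 alone the share was 71.4% and 69.6%. When distal summits up to 10 kb apart were joined, they made 257 groups: 180 single summits, 45 pairs and 32 groups of 3 or more. The groups of 2 or more held 213 summits (54.2%).

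The largest group, of 10, lay in a gap of 75 kb on 3L between NijA, which encodes a ninjurin, and CG43245. The gap held 11 distal summits in all, at signals of 142 to 2818 with a median of 541. From left to right the 10 had signals of 541, 143, 277, 869, 1092, 243, 543, 2818, 142 and 595. The strongest, at chr3L:10752748, had 1226 in replicate 1 and 1606 in replicate 3, and the second, at chr3L:10740063, had 574 and 499. Strong and weak summits alternated within a few kb, and the rise of the strongest over its neighbours was present in both libraries.

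A gap of 70.5 kb between vvl and Prat2 held 8 summits, with signals of 139 to 1203 and a median of 319. The gene vvl encodes a POU factor needed in the tracheae and the nervous system, and the strongest of the 8 lay 58695 bp from its end, with 513 in replicate 1 and 694 in replicate 3. A gap of 33.0 kb between hng3 and CG13898 held 7, with signals of 220 to 1252. Between Tollo and Best4, 56.1 kb, there were 6, with signals of 146 to 527. In the shorter gap of 19.1 kb between CG44362 and CG7560 there were also 6, and the 2 strongest, 1164 and 994, were 683 bp apart. The gap of 73.5 kb between grim and rpr, a pair of cell death genes, held 4 summits, at 143, 458, 141 and 187.

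**Figure D4:**
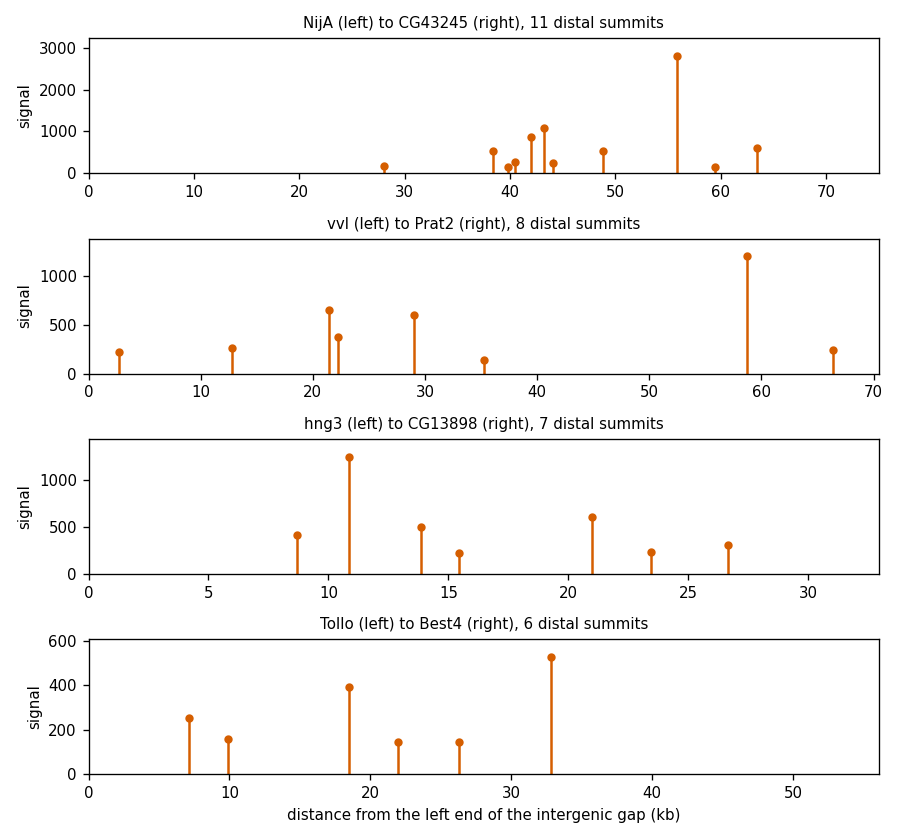
Signal (authors' score) of each distal intergenic summit against its distance from the left end of the gap between genes (kb) in the 4 gaps that hold the most; each stem is 1 summit and the vertical scale differs between panels. Summits of 142 to 2818 stand side by side in the gap from NijA to CG43245, and the strongest in the gap from vvl to Prat2, 1203, stands far from vvl.

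The strongest distal summit of all lay between RFeSP and chinmo at chr2L:1638782, 12476 bp from the TSS of chinmo, with a signal of 3968. It had 1822 in replicate 1 (rank 12) and 2174 in replicate 3 (rank 26), and it had rank 16 in the reproducible list. The gene chinmo encodes a BTB zinc-finger protein that sets the temporal identity of mushroom body neurons. Another 2 summits in the same gap, at chr2L:1632832 and chr2L:1634290, had signals of 1913 and 307. Noncoding RNA genes start nearer to them than chinmo, at 8381 bp from the strongest and 6811 bp from the second.

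Beside the Polycomb group genes Psc and Su(z)2, which stand next to each other and encode subunits of repressive complexes, 2 of the 6 strongest distal summits lay on the outer sides of the pair. The summit between Su(z)2 and CG13323, at chr2R:13035334, had a signal of 3674, with 1653 in replicate 1 and 2040 in replicate 3. It was 27423 bp from the end of Su(z)2 and 9361 bp from that of CG13323. The summit between CG13321 and Psc, at chr2R:12959399, had a signal of 1710, with 817 and 894, and lay 6598 bp from the end of Psc. Its window had 11.9% GC, the lowest value among the 393, which 1 other distal summit, between CG7557 and CG12289 (signal 286), also had. The other 3 distal summits between Su(z)2 and CG13323 were weak, at 271, 157 and 167.

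The summit beside scyl, which encodes an inhibitor of TOR signalling, had a signal of 1747 at chr3L:11261641, with 718 in replicate 1 and 1058 in replicate 3. A neighbour at chr3L:11260395 had 726, with 374 and 361. The weakest of the 12 strongest, at chr2L:3437210 between Pgant2 and CG2772, had 947, with 425 and 524. The 12 strongest were higher in replicate 3 than in replicate 1 with 1 exception, the summit of 1092 between NijA and CG43245. Over all distal summits the median signal was 105 in replicate 1 and 120 in replicate 3, and over all reproducible summits it was 129 and 149. The replicate lists use their own scales, so this direction was not read as a trait of the summits named.

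By the nearest protein-coding TSS, the 393 summits fell to 250 genes. The median distance to that TSS was 10.7 kb and the longest 64.0 kb. Genes of a chosen list of 81 patterning and homeodomain factors were nearest to 33 summits (8.40%, 6.04 to 11.6%). Such a gene was nearest to 3.74% of unmasked distal intergenic DNA and 1.30% of all reproducible summits. The share was 7.65% in replicate 1 alone and 9.42% in replicate 3 alone. Together with neuron identity and neuroblast factors they were nearest to 39 (9.92%, 7.34 to 13.3%), with 9.35% and 10.5% in the replicates, against 4.99% of the unmasked DNA and 2.24% of all reproducible summits. The share of bases is the closer background, since a distal summit can lie only in such DNA. It still takes in the gaps of more than 100 kb, which held 2 of the 393 summits in 5.76 Mb of eligible DNA. Base shares without these gaps are not given here. Neuron identity and neuroblast factors alone, with 6 summits (1.53%, 0.702 to 3.29%), were near their 1.25% of the DNA and 0.941% of all reproducible summits. The lists were not complete. The genes unc-4 and hry, each nearest to 1 distal summit, were in none of them, so the shares hold for the listed genes alone. All gene lists were chosen with earlier results of these data known.

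The 33 summits were spread over 15 of the 81 patterning and homeodomain genes listed, with vvl nearest to 7, ems to 4, and hth and oc to 3 each. The summit near Doc2, one of a cluster of T-box genes of the dorsal embryo, had a signal of 873, with 387 in replicate 1 and 490 in replicate 3. The one near eyg, a Pax family gene, had 713, with 333 and 374. The strongest with vvl nearest had 652, with 271 and 386. The strongest near ems, a head gap gene that also acts in the brain, had 631, with 260 and 366. These 4 were named because they were the strongest of their list. All 4 were higher in replicate 3, as was the median over all distal summits (105 in replicate 1 and 120 in replicate 3). The median over all reproducible summits was higher there too (129 and 149), on scales that belong to each list.

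Signalling genes were nearest to 11 summits (2.80%, 1.57 to 4.94%), against 1.13% of unmasked distal DNA and 1.62% of all reproducible summits, with 2.27% and 2.62% in replicates 1 and 3 alone. The share over all summits was inside the interval. The summit near ptc, the Hedgehog receptor, had a signal of 810, with 374 in replicate 1 and 445 in replicate 3. The stronger of 2 near wg, a Wnt ligand, had 651, with 261 and 383. The strongest of 3 near ths, which encodes an FGF ligand, had 358, with 135 and 215. The strongest of 3 near kek1, an inhibitor of the EGF receptor, had 233, with 112 and 134. Summits with wg or Wnt4 nearest shared 1 gap of 30 kb, so they are not separate loci.

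Mesoderm and muscle genes were nearest to 9 (2.29%, 1.21 to 4.29%), against 0.881% of the DNA and 0.871% of all reproducible summits, and 8 of those were at Doc1, Doc2, H15 and mid, T-box genes that also stand in the patterning list. Genes of gut, trachea and epidermis were nearest to 8 (2.04%, 1.04 to 3.96%), of which 7 were those of vvl, against 0.712% of the DNA and 0.775% of all reproducible summits. Axon guidance and adhesion genes had 5 (1.27%, 0.545 to 2.94%) against 2.89% of the DNA and 1.60% of all reproducible summits, with 0.850% and 1.31% in the replicates. That share was close to the one over all summits. The strongest of these, near DIP-gamma, had a signal of 249, with 134 in replicate 1 and 114 in replicate 3. Nuclear receptor and ecdysone genes had 2, both near Eip93F, an ecdysone-induced regulator, at signals of 364 and 217 (0.509%, 0.140 to 1.84%), against 0.752% of the DNA and 1.09% of all reproducible summits.

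Chemoreceptor genes had 6 (1.53%, 0.702 to 3.29%) against 1.31% of the DNA and 0.443% of all reproducible summits, led by Gr93b at 365. Ion channel, transmitter and neuropeptide genes had 0 of 393, which allows up to 0.968%, against 0.413% of the DNA and 0.401% of all reproducible summits, and cuticle protein genes had 0 against 0.107% and 0.263%. Ribosomal protein genes had 1 (0.254%, 0.0449 to 1.43%), near RpL10Aa, against 1.02% and 0.899%, and proteasome genes had 1, near Prosbeta5R1, against 0.0629% and 0.152%. For most of the lists the Wilson interval held the share of the unmasked DNA. These intervals count neighbouring summits as separate, and no difference was tested.

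**Figure D5:**
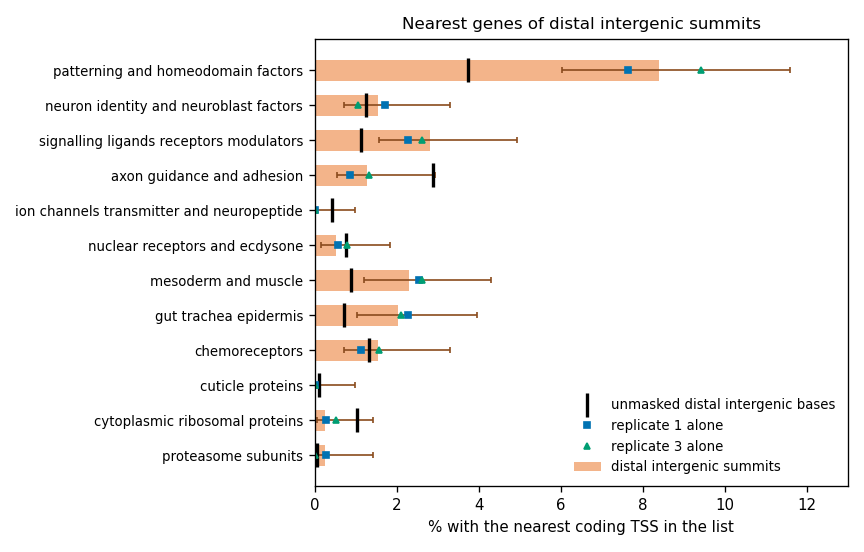
Percent of the 393 distal intergenic summits whose nearest protein-coding TSS belongs to each gene list (bars, with Wilson 95% intervals), in each replicate alone (squares and triangles) and, as black ticks, percent of unmasked distal intergenic bases with such a gene nearest. Patterning and homeodomain factors have 8.40% of the summits and 3.74% of the bases, and 1.30% of all reproducible summits. Axon guidance and adhesion genes have 1.27% and 2.89%, and 1.60% of all reproducible summits. Some genes stand in more than 1 list, and the lists were chosen with earlier results of these data known. The bases include gaps of more than 100 kb.

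Distance from the TSS told little about strength. The 393 lay 5021 to 37595 bp from the nearest TSS, with a median of 8781 bp (quartiles 6677 and 12857), and 161 lay beyond 10 kb. Median signal was 210 at 5 to 7.5 kb (137 summits), 234 at 7.5 to 10 kb (95), 224 at 10 to 20 kb (125) and 208 beyond 20 kb (36), and Spearman's rho between distance and signal was 0.017. The nearest TSS was that of a protein-coding gene for 265 and of a noncoding RNA for 120. The summit was on its upstream side in 193 cases (49.1%) and on its downstream side in 200.

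The farthest summit, 37595 bp from bab2, a gene for a BTB factor of leg and gonad patterning, had a signal of 149, with 61.1 in replicate 1 and 72.9 in replicate 3. The next, 36639 bp from CG43245 in the gap from NijA, had 541, with 229 and 309. The others among the 5 farthest had signals of 139, 143 and 208, in the gaps beside vvl, NijA and kek1. The 5 weakest, near hth, CG43336, CG18823, Jhbp1 and CG31419, had signals of 135 or 136. The 3 summits just inside the limit, at 5021, 5027 and 5070 bp, had signals of 140, 150 and 264, and the 3 intergenic ones just outside, at 4989, 4981 and 4965 bp, had 308, 256 and 330.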

How the data were processed

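ChIP-seq peaks of Hr51-GFP were taken from 4 deposited lists on dm6, per the labels: replicate 1, replicate 3, pooled reads (30000 peaks each) and the reproducible list (7229 summits, kept by an irreproducible discovery rate procedure). Aligner, caller and settings are not given in the sources used here. A score per peak, called signal, was deposited by the authors on an unstated scale and was used to rank and describe peaks within a list. The deposited −log10 q-value was at its ceiling, 4.25, in all reproducible peaks and was not used. The summit offset was taken as the authors deposited it. No read counts were used, so depth is unknown.

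Genes were those of Ensembl release 115 without its 5809 transposable element models, and bases came from the RefSeq genome of the same build, in which lower case marks repeats. Summits were assigned to places on arms 2L, 2R, 3L and 3R and chromosomes 4 and X. Eligible DNA was intergenic and more than 5000 bp from a TSS. Replicate peaks were matched at an overlap of at least 1 bp, and replicate lists cut to 7229 peaks gave the replicate values. The 31 motifs and 2080 6-mers were counted on both strands in windows reaching 50 bp to each side, with eligible tiles of the same length as background; weighting used GC bins of 5 bases, or 5 percentage points for 501 bp. Python 3.11.15, numpy 2.4.6, pandas 2.3.3, scipy 1.17.1 and matplotlib 3.10.9 were used, and the counting was checked on simulated data.

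No test was run: 1 group of 2 libraries allows none between conditions. The summits and gene lists were chosen with earlier results of these data known. Named summits were the 12 strongest, the 5 farthest and 5 weakest, those of the largest group, those at the limit, up to 4 per gene list and the 5 strongest with a peak in 1 replicate. Gaps with 4 or more summits, members with rare motifs and the summits beside scyl, grim, Psc and Su(z)2 were also named after their values were seen.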

Additional observations from a re-analysis of the deposited data

How the results depend on the processing

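Of 87 alternative values, 44 moved by less than the replicate SD or kept their count and 43 moved further; none has a test. The share of the list was 6.88% beyond 4000 bp, 2.23% beyond 10000 bp, 4.73% with transposable elements as genes, 8.47% with protein-coding TSSs alone, 3.62% among the upper 3614 of the list and 4.88 to 5.28% with a replicate left out. The density ratio was 0.409, 0.231, 0.443, 0.468 and 0.241 in that order, 0.325 to 0.352 without a replicate, 0.505 without gaps over 100 kb and 0.427 over unmasked bases. Median signal was 383 among the upper 3614 and 250 without summits at the middle of default-width peaks; replicate lists use their own scale and gave no value. The correlation of the replicates was 0.738 and 0.754 beyond 4000 and 10000 bp, 0.723 with transposable elements as genes and among the upper 3614, 0.814 as Pearson's r of log2 signal and 0.794 to 0.806 for the summits of 1 replicate alone. Overlap with both replicates became overlap with the list of the other, 90.6 to 99.7%. Another summit within 10 kb was found for 71.4% beyond 10000 bp, 75.5% with protein-coding TSSs, 49.6% among the upper 3614 and 69.6 to 71.4% without a replicate, and within 5 kb for 50.6%. Patterning or neuron identity factors were nearest to 13% beyond 10000 bp and among the upper 3614, 11.4% with transposable elements as genes, 8.17% with protein-coding TSSs and 9.35 to 10.5% without a replicate, and flanked 16.0%. GAGAG was in 8.48% with transposable elements as genes, 6.87% among the upper 3614, 3.82% at 25 bp, 22.9% at 100 bp, 10.1% with under 50% masked bases and 8.38 to 9.07% without a replicate. AGGTCA was in 3.05% among the upper 3614, 0.763% at 25 bp, 4.07% at 100 bp and 1.83 to 2.83% without a replicate. The causes were not tested. No paired analysis was possible because there was 1 group. The peak calls limit all values: depth, control reads and the scale of the signal are unknown here, and weaker distal sites fall below the threshold of the list.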

Other observations

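Some pairs of neighbouring regulators had distal summits on both sides or in the shared gap. Between the T-box genes Doc2 and Doc1, 4 distal summits of 188 to 873 stood in 17.3 kb. Around H15 and mid, another T-box pair, 4 summits stood at 445, 301, 223 and 189. Between the homeobox genes B-H2 and B-H1, the DNA held 3, at 324, 191 and 139, the weakest without a peak in replicate 1. Between pyr and ths, a pair of FGF genes, 3 stood at 358, 182 and 180. These pairs were picked after their values were seen, and no test was made.

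Other genes with several distal summits were not in the lists. Myc, a growth regulator, was nearest to 3, at 318, 242 and 147. The gene jhamt, which encodes an enzyme of juvenile hormone synthesis, was nearest to 3, at 187, 147 and 145. Toll-6, a neuronal receptor of the Toll family, was nearest to 3, at 410, 203 and 188.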
